A study of Mus musculus with 12 samples.

Results

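The neuregulin and endothelin genes described here are 9 rows of a table of gene counts from whole mouse embryonic hearts: the ligands Nrg1 and Hbegf, the receptors Erbb2, Erbb3 and Erbb4, the peptide gene Edn1, its converting enzyme Ece1, and the receptors Ednra and Ednrb. They were chosen by symbol. All 9 were among the 45664 rows and among the 20691 genes that passed the filter on low counts. The 12 hearts came from E13.5 and E14.5, counted in embryonic days, with 3 wild-type (WT) and 3 knockout (KO) hearts at each stage. In the KO hearts Ino80, which encodes the ATPase of a chromatin remodelling complex, was disrupted in the endothelial lineage with Tie2, a promoter active in endothelium and endocardium and also in part of the blood lineage. Strain, embryo sex, the deleted part of Ino80 and any allele that the WT embryos carry are not given in the sources used here. Each library is taken as 1 heart; the labels number them and name their litter but do not say whether hearts were pooled, so p-values measure the spread between these samples. All 6 E13.5 hearts were from litter 1, so stage and litter cannot be told apart. At E14.5, litter 2 gave WT hearts 8 and 7 and KO hearts 2 and 4, and litter 3 gave WT heart 7.2 and KO heart 1.

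In the developing heart, the endocardium lines the chambers and releases peptides that act on the muscle beside it. Neuregulin 1 is the best known of these: it binds ErbB4 on cardiomyocytes, ErbB4 pairs with ErbB2, and mice that lack any of these genes fail to form the muscular ridges called trabeculae. ErbB3, which needs a partner receptor for kinase signalling, serves mainly in the mesenchyme of the valve cushions, and HB-EGF is an epidermal growth factor family ligand that acts on Egfr and ErbB4 and limits cushion growth. Endothelin 1 is made as an inactive precursor by endothelial cells, is cut to its active form by the membrane protease ECE1, and signals through the G protein coupled receptors ETA (Ednra), best known on neural crest derived and smooth muscle cells, and ETB (Ednrb), found on endothelial cells among others.

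The libraries held between 46556032 and 182545647 counts, and no library was a copy of another. Ino80 itself had a mean of 33.7 ± 2.92 CPM (counts scaled to a common library size) in E13.5 WT and 29.6 ± 0.0252 in E13.5 KO hearts, and of 32.03 ± 1.61 in E14.5 WT and 29.5 ± 2.45 in E14.5 KO hearts (SD, n = 3 each). The difference did not pass edgeR's quasi-likelihood test at either stage (adjusted p = 0.451 and 0.730), and since other heart cells keep the gene and the deleted part is not known here, this whole-gene count does not check the labels. Of 4 Y-linked genes, 4 were higher in KO than in WT hearts at E13.5 (median log2 difference 1.03) and 2 at E14.5 (median 0.035), with 0 called by edgeR. Whether the groups differed in sex was not tested. Endothelial markers were present in every library: Cdh5 ranged from 224 to 301 CPM. Markers of macrophages and leukocytes (10 of 10 tested) summed to between 77.0 and 81.2 CPM in E13.5 WT hearts and between 10.3 and 49.3 in E13.5 KO hearts, and to between 63.6 and 68.6 in E14.5 WT and between 16.8 and 86.8 in E14.5 KO hearts.

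None of the 9 genes passed the threshold of an adjusted p under 0.05 in any of 6 comparisons by edgeR's quasi-likelihood test with Benjamini-Hochberg adjustment over all 20691 genes. The background was low for genotype: 0.106% of all genes passed between KO and WT at E13.5, 0.222% at E14.5, 1.42% when the KO minus WT difference was averaged over the stages, and 0.00% (0 genes) for the change of that difference between stages. It was higher for stage, at 4.04% of genes in WT and 3.74% in KO hearts. At an unadjusted p under 0.05 the numbers of the 9 were 1 at E13.5, 3 at E14.5, 6 averaged, 1 for the change between stages, and 3 and 2 for stage in WT and in KO, beside 10.3%, 9.59%, 14.7%, 3.61%, 22.7% and 20.1% of all genes. DESeq2, run on the same counts, called 0, 1, 2, 0, 2 and 1 of the 9. Over all 20691 genes DESeq2 called more than edgeR, with 310, 348, 926, 2, 2140 and 1822. For the change between stages, 746 genes had an unadjusted p under 0.05 by edgeR. The values that stood out were a higher level of Nrg1 and a lower level of Erbb2 in KO hearts at both stages, and a level of Ednrb that was lower in E14.5 WT hearts than in the other 3 groups.

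**Figure D1:**
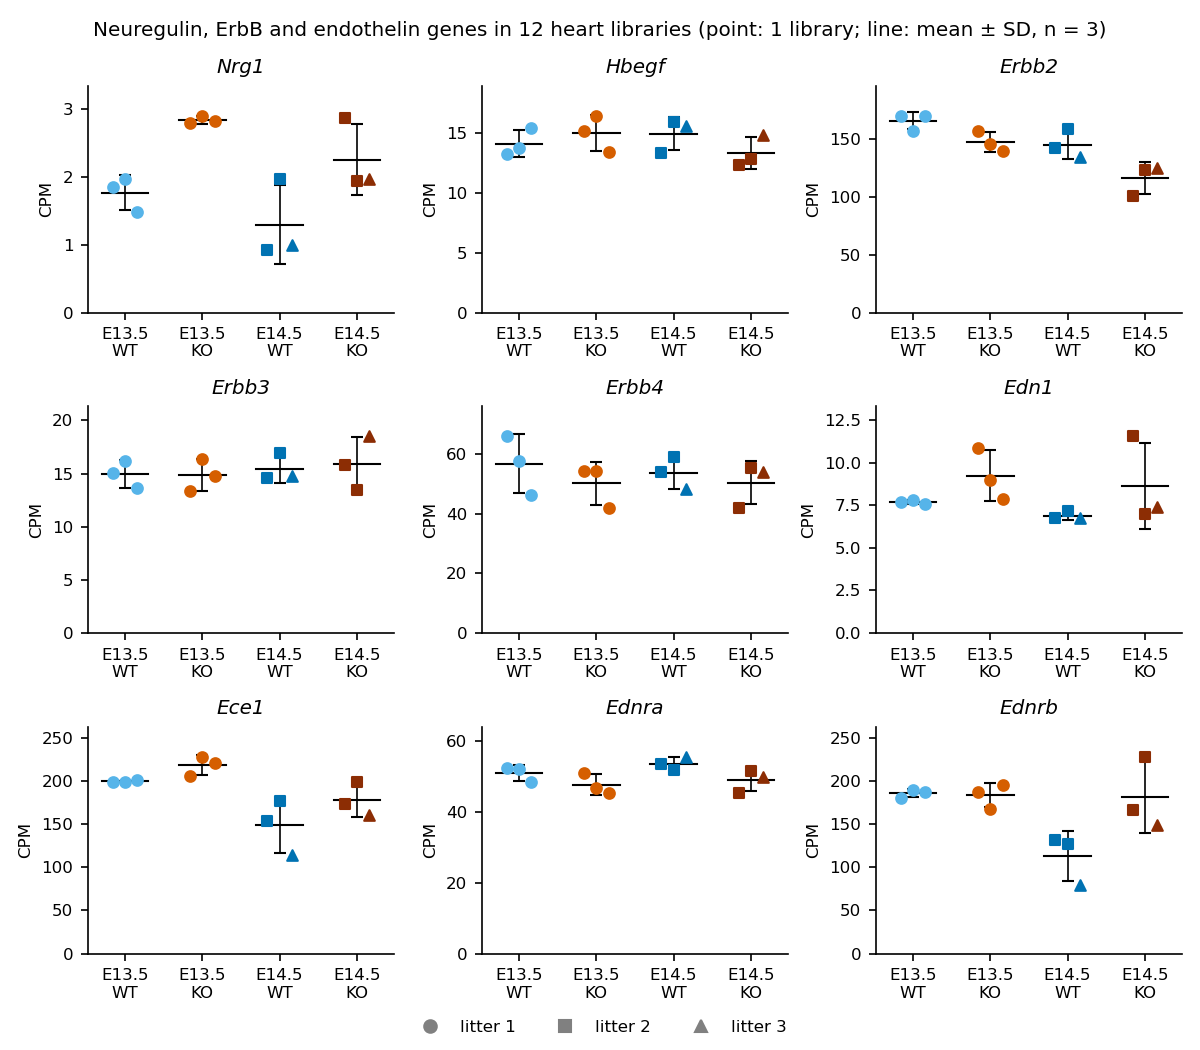
Each panel plots 1 gene in CPM (vertical axis, starting at 0) for the 4 groups (horizontal axis), with 1 point per library, the mean as a horizontal line, its SD as a bar (n = 3) and the litter as the point's shape. The E14.5 WT hearts are lowest for Ednrb, at 79.6 to 132 CPM, and the E13.5 KO hearts all lie above the E13.5 WT hearts for Nrg1.

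Positions are on GRCm38, and values per length below divide by the summed length of all annotated exons (GENCODE). Nrg1 spans chr8:31814551-32884029 on the minus strand, with 10351 bp of exon and 12 coding transcripts, so a gene-level count adds up ligand isoforms that differ in their ends and cannot separate them. Erbb2 lies at chr11:98412470-98437716, Erbb3 at chr10:128567523-128589652, Erbb4 at chr1:68032186-69108059, Edn1 at chr13:42301476-42307990, Ece1 at chr4:137862237-137965229, Ednra at chr8:77663031-77724464 and Ednrb at chr14:103814625-103844402. Exons of 4 of the genes overlap an exon of a gene on the other strand, by 482 bp (4.66% of exon length) for Nrg1 with Gm26578, 91 bp for Ednra with 4933431K23Rik, 35 bp for Edn1 with Gm47118 and 9 bp for Erbb2 with Mien1. Whether strand was used in counting was not given in the sources used here, so reads in those stretches cannot be told apart.

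The promoters of Ednrb and Ece1 are shown because, as described further on, the levels of these 2 genes followed each other most closely among the 9. RefSeq's table of promoters on GRCm38.p6 matched 6 of the 9 genes by symbol. Each line gives the 250 bases before 1 annotated start, 5′ to 3′ on the gene's strand, at chr14:103843702-103843951 (minus strand) for Ednrb and chr4:137861987-137862236 (plus strand) for the outermost start of Ece1. Capitals would mark a match to any of 6 motifs searched on both strands.
Ednrb: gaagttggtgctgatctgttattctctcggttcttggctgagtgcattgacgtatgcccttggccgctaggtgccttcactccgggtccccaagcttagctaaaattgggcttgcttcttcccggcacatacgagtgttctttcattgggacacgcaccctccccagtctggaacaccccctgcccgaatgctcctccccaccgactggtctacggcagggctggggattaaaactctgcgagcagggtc
Ece1: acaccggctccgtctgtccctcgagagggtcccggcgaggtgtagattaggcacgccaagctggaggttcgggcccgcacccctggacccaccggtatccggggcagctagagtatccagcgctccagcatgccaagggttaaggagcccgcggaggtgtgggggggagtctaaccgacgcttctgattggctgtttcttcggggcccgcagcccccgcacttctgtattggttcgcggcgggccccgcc
Neither window held a complete match, so all letters are in lower case. Their G and C content was 56.8% for Ednrb and 66.8% for Ece1. The motifs, with the share of 32851 RefSeq promoter windows of the same length that hold them, were TATAAA (12.4%), GGGCGG (32.7%), AGATAA (9.99%), TGACTCA (4.46%), AGGAAG (29.5%) and CACGTG (6.02%). Among the other windows of the 6 genes, Ednra held AGGAAG at 2 places and Erbb2 at 1, and downstream starts of Ece1 held GGGCGG or CACGTG. In one of these Ece1 windows, chr4:137862030-137862279, a minus-strand GGGCGG begins 48 bases before the start. That match begins inside the Ece1 window printed above and ends just past it.

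Compared per length, the 9 genes fell into 4 tiers in E13.5 WT hearts. Ednrb (43.6 CPM per kb of exon), Ece1 (37.7) and Erbb2 (31.8) were highest, followed by Ednra at 9.31. Erbb4 (4.58), Edn1 (3.61), Hbegf (2.93) and Erbb3 (2.48) lay close to each other, and Nrg1 was lowest at 0.171. The ranges of neighbours in that order did not overlap in that group. In E13.5 KO hearts the range of Ednrb overlapped that of Ece1, that of Edn1 overlapped Erbb4, and that of Erbb4 overlapped Hbegf. In E14.5 WT hearts the top 3 changed places, with Ece1 at 28.1, Erbb2 at 27.8 and Ednrb at 26.5 CPM per kb, and their ranges overlapped, as did those of Edn1 with Hbegf and of Hbegf with Erbb3. In E14.5 KO hearts the order was again Ednrb (42.5), Ece1 (33.6) and Erbb2 (22.3), with the first 2 overlapping, and so did Erbb4 with Edn1 and Hbegf with Erbb3. Nrg1 was last in all 4 groups, and its raw counts ran from 43 to 513 per library, against 4902 to 35494 for Ednrb, so counting error is largest for Nrg1. A low level in a whole heart does not separate few expressing cells from little RNA per cell, and this holds for every difference below.

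**Figure D2:**
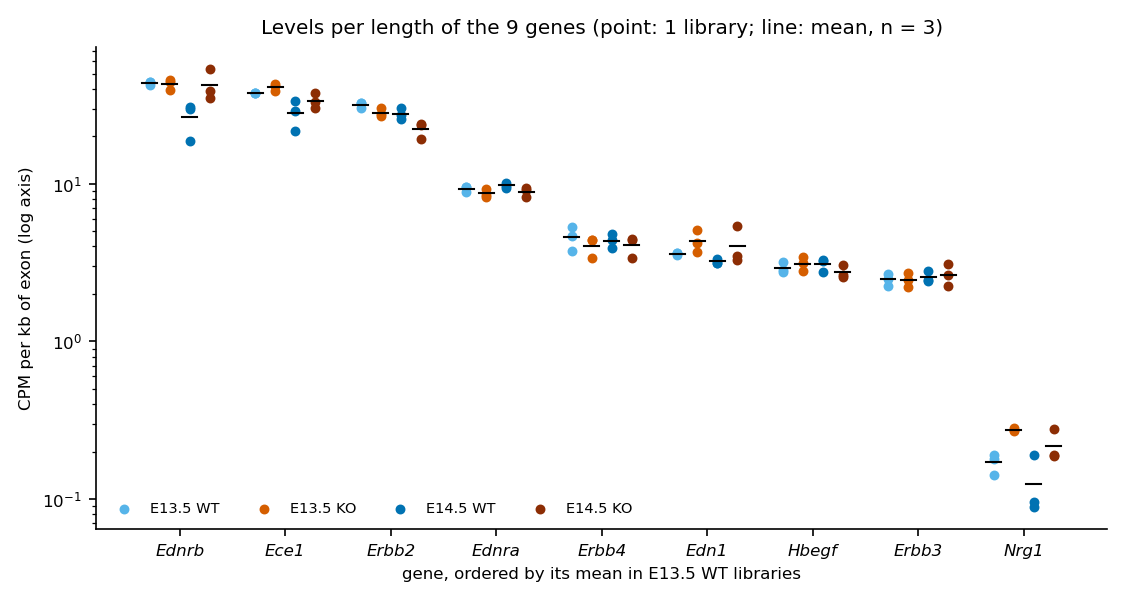
Each point is 1 library's level in CPM per kb of exon (vertical log axis) for the 9 genes on the horizontal axis, coloured by group, with the mean of 3 as a line. Ednrb, Ece1 and Erbb2 are on top in every group and Nrg1 is lowest in all 4, at 0.171 CPM per kb in E13.5 WT.

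Nrg1, the endocardial ligand for ErbB4 and ErbB3, had the largest KO minus WT difference of the 9 genes averaged over the stages. In E13.5 WT hearts it was at 1.85, 1.97 and 1.47 CPM (numbers 1, 4 and 2), and in E13.5 KO hearts at 2.80, 2.90 and 2.82 (numbers 3, 5 and 7). The 3 KO hearts were all above the 3 WT hearts and close to each other. At E14.5 the WT hearts were at 0.918, 1.96 and 0.991 CPM (numbers 8, 7 and 7.2) and the KO hearts at 2.86, 1.93 and 1.96 (numbers 2, 4 and 1). There the groups overlapped through WT heart 7, which was level with 2 of the KO hearts. The log2 difference was 0.68 ± 0.27 (SE, edgeR adjusted p = 0.418) in the younger and 0.80 ± 0.28 (adjusted p = 0.338) in the older hearts. Averaged it was 0.74 ± 0.19 (adjusted p = 0.0825), a ratio of 1.67. Without E14.5 WT heart 7 the averaged difference was 0.96 with an adjusted p of 0.0187, and DESeq2 gave an adjusted p of 0.00804 for all 12 libraries. It missed the threshold without each of the other 11 libraries (down to 0.64 without E14.5 KO heart 2, adjusted p up to 0.188), without litter 3 (0.71, adjusted p = 0.130) and with the litter block (0.75, adjusted p = 0.0645). Within litters at E14.5 the log2 CPM difference was 0.80 in litter 2 and 0.97 in litter 3, the latter from 1 heart of each genotype.

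The level of Nrg1 was also set against markers of endothelial cells as a whole, which are not markers of the endocardium alone. The 14 pan-endothelial markers summed to between 1187 and 1268 CPM in E13.5 WT and between 1141 and 1165 in E13.5 KO hearts, and to between 1052 and 1249 in E14.5 WT and between 1243 and 1346 in E14.5 KO hearts. The markers themselves differed by genotype, with 5 of 14 higher in KO hearts at E13.5 and 12 of 14 at E14.5. By edgeR 1 was called lower at E13.5, and 1 higher and 1 lower averaged, beside 0.106% and 1.42% of all genes. A ratio to them therefore does not separate Nrg1 from the markers. A ratio to the endocardial markers, of which 7 of 8 were above 0 averaged, was not tested. Relative to the mean log2 level of the 14 markers, Nrg1 was 0.77 higher on the log2 scale in KO hearts at E13.5 and 0.68 higher at E14.5. The mean, 0.72, had an exact permutation p of 0.015 (two-sided, genotype permuted within stage, 400 arrangements, smallest possible 0.005), which is 0.06 after adjustment over the 4 ratios tested. For Edn1 the same ratio differed by 0.33 at E13.5 and 0.12 at E14.5 (mean 0.22, exact permutation p = 0.125, adjusted 0.167). Without E14.5 WT heart 7 the adjusted exact permutation p for Nrg1 was 0.02, and without E13.5 KO heart 5 it was 0.04. Without each of the other 10 libraries it was 0.05 to 0.1.

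The level of the remaining ligand of the family, Hbegf, ran from 13.3 to 15.4 CPM in E13.5 WT, from 13.4 to 16.5 in E13.5 KO, from 13.4 to 15.9 in E14.5 WT and from 12.3 to 14.8 in E14.5 KO hearts. The log2 difference between KO and WT was 0.09 ± 0.11 at E13.5 and -0.17 ± 0.11 at E14.5 (SE, edgeR, adjusted p = 0.815 and 0.711), and its 95% interval averaged over stages was -0.21 to 0.12. The 4 ranges overlapped throughout.

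Erbb2, the signal-transmitting partner that binds no ligand itself, was the only 1 of the 9 whose KO and WT hearts did not overlap at both stages in the same direction, a pattern shown by 3.25% of all genes. The counts gave 170, 157 and 170 CPM in E13.5 WT (numbers 1, 4 and 2) and 157, 145.2 and 140 in E13.5 KO hearts (numbers 3, 5 and 7). The separation at E13.5 was minimal, since the lowest WT heart had 156.83 CPM and the highest KO heart 156.81. At E14.5 they gave 142, 158 and 134 CPM in WT (numbers 8, 7 and 7.2) and 100.3, 123 and 124 in KO hearts (numbers 2, 4 and 1), with a gap between the groups. The log2 difference was -0.17 ± 0.09 (adjusted p = 0.531) in the younger and -0.32 ± 0.09 (adjusted p = 0.205) in the older hearts, and averaged it was -0.24 ± 0.06 (SE; adjusted p = 0.0801, edgeR), so that WT hearts had 1.18 times the level of KO hearts. Within litters at E14.5 it was -0.43 in litter 2 and -0.10 in litter 3. Without litter 3 the averaged difference was -0.29 with an adjusted p of 0.0492, and DESeq2 gave 0.0139 with all libraries. It missed the threshold in all 12 fits without 1 library (-0.27 to -0.20, adjusted p = 0.0518 to 0.184) and with the litter block (adjusted p = 0.0814). Between stages the level was lower at E14.5 in KO hearts, by -0.34 ± 0.09 (adjusted p = 0.0513), and in WT hearts by -0.19 ± 0.09 (adjusted p = 0.216). The KO value was past the threshold without E14.5 KO heart 4 (adjusted p = 0.0487), without E14.5 WT heart 7.2 (0.0431), without litter 3 (0.0426), with no filter on low counts (0.0422) and by DESeq2 (0.0102).

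The other ErbB receptors differed little. Erbb4, which binds neuregulin on cardiomyocytes, ran from 46.2 to 66.0 CPM in E13.5 WT and from 41.7 to 54.4 in E13.5 KO hearts, and from 48.1 to 59.1 in E14.5 WT and from 42.0 to 55.2 in E14.5 KO hearts. Its averaged log2 difference was -0.14 ± 0.11 (SE, edgeR, adjusted p = 0.584). Erbb3 had an averaged difference of 0.02 ± 0.09 (adjusted p = 0.951) with a 95% interval of -0.17 to 0.20, and its levels stayed between 13.4 and 18.5 CPM in all 12 hearts. The ratio of Erbb4 to Erbb2, the receptor pair for neuregulin in muscle, was the same in both genotypes at E13.5 to within 0.01 log2 units and 0.22 higher in KO hearts at E14.5. At E14.5 it was -1.39, -1.42 and -1.475 in WT hearts 8, 7 and 7.2 and -1.26, -1.16 and -1.21 in KO hearts 2, 4 and 1. The genotypes thus did not overlap at E14.5, while at E13.5 they did. The mean difference over both stages, 0.11, had an exact permutation p of 0.28 before and after adjustment, and E14.5 was not tested alone. Cardiomyocyte markers (10 of 10 tested) had 0 members called in either direction averaged over stages, with 9 of 10 differences below 0 and a median of -0.11 beside -0.0022 over all genes. Whether the level of Erbb2 follows the amount of cardiomyocyte RNA was not tested.

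**Figure D3:**
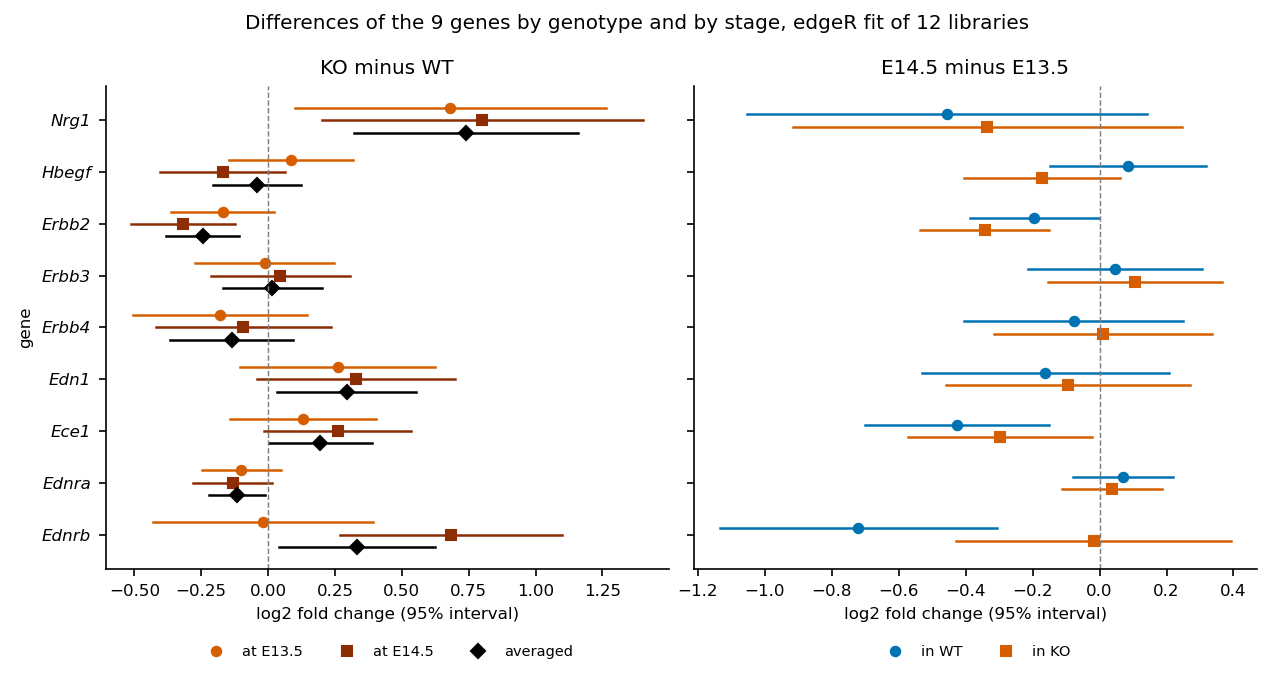
Log2 fold changes (horizontal axis) of the 9 genes (vertical axis) with their 95% intervals from the edgeR fit of 12 libraries, for KO minus WT on the left and E14.5 minus E13.5 on the right. Nrg1 (averaged 0.74) lies to the right and Erbb2 (averaged -0.24) to the left of 0 by genotype, and Ednrb differs by genotype at E14.5 (0.68) and by stage in WT (-0.72).

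Edn1, the precursor of endothelin 1, was at 7.72, 7.82 and 7.61 CPM in E13.5 WT (numbers 1, 4 and 2) and at 10.9, 9.003 and 7.90 in E13.5 KO hearts (numbers 3, 5 and 7). The KO hearts lay above the WT hearts but the lowest of them nearly touched the WT range. At E14.5 it was at 6.77, 7.17 and 6.76 CPM in WT (numbers 8, 7 and 7.2) and at 11.6, 6.997 and 7.44 in KO hearts (numbers 2, 4 and 1), so only KO heart 2 stood well apart. The averaged log2 difference was 0.29 ± 0.12 (SE, edgeR, adjusted p = 0.276). Without E14.5 KO heart 2 it was 0.16 (adjusted p = 0.519), and the E14.5 difference went from 0.33 to 0.064 (adjusted p = 0.600 and 0.975). At E14.5 it was 0.37 in litter 2, which holds that heart, and 0.14 in litter 3.

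Ece1, the enzyme that activates endothelin, was tightly grouped in E13.5 WT hearts at 199.1, 199.6 and 200.9 CPM (numbers 1, 4 and 2). The E13.5 KO hearts were at 206, 229 and 222 CPM (numbers 3, 5 and 7), all above the WT hearts. At E14.5 the WT hearts spread to 154, 177 and 114 CPM (numbers 8, 7 and 7.2) and the KO hearts to 174, 199 and 161 (numbers 2, 4 and 1), and the groups overlapped. By genotype the averaged log2 difference was 0.20 ± 0.09 (SE, edgeR, adjusted p = 0.335), and 0.12 without E14.5 WT heart 7.2. By stage it was -0.43 ± 0.13 in WT (adjusted p = 0.0732) and -0.30 ± 0.13 in KO hearts (adjusted p = 0.207), with no overlap between stages in either genotype, as for 29.5% and 24.9% of all genes. The WT value was past the threshold without E14.5 WT heart 7 (-0.58, adjusted p = 0.0357) and by DESeq2 (0.0188), and it was -0.27 without E14.5 WT heart 7.2, the lowest heart.

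Ednrb, the type B endothelin receptor, showed the largest differences of the endothelin genes. It was at 181, 189 and 188 CPM in E13.5 WT (numbers 1, 4 and 2) and at 187, 168 and 195 in E13.5 KO hearts (numbers 3, 5 and 7), with full overlap. At E14.5 it was at 132, 128 and 79.6 CPM in WT (numbers 8, 7 and 7.2) and at 167, 228 and 149 in KO hearts (numbers 2, 4 and 1). Every E14.5 WT heart was below all hearts of the other 3 groups. Between genotypes the log2 difference was -0.02 ± 0.19 (adjusted p = 0.985) in the younger and 0.68 ± 0.19 (adjusted p = 0.217) in the older hearts, the latter a ratio of 1.61. The change of that difference between stages was 0.70 ± 0.26 (SE, edgeR, unadjusted p = 0.0226, adjusted p = 0.997). From E13.5 to E14.5 the WT level differed by -0.72 ± 0.19 (adjusted p = 0.0578) and the KO level by -0.02 ± 0.19 (adjusted p = 0.971).

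The call for Ednrb depended on the model. With litter as a replicate block, the E14.5 difference was 0.71 (edgeR adjusted p = 0.0139), the averaged difference was 0.34 (adjusted p = 0.0383) and the stage difference in WT, which then refers to litter 2, was -0.57 (adjusted p = 0.0387). The KO heart was higher in each litter, by 0.59 in litter 2 and 0.90 in litter 3. DESeq2 gave an adjusted p of 0.00998 at E14.5 and of 0.00163 for stage in WT. The results given here use edgeR's robust estimate of gene variances, a setting chosen after the default fit and its results for the 9 genes had been seen. Under the default, the stage difference of Ednrb in WT was past the threshold (adjusted p = 0.0449) and the only call among the 9. In the robust fit it was past it without E14.5 KO heart 4 or KO heart 1 (adjusted p = 0.0304 and 0.0483), without each of the other 10 libraries it was not (adjusted p up to 0.158), and without litter 3 it was -0.53 (adjusted p = 0.0748). No fit without 1 library brought the E14.5 difference (adjusted p = 0.115 to 0.404) or the averaged difference (0.163 to 0.441) past the threshold. Both also missed it without litter 3, at 0.61 (edgeR adjusted p = 0.0857) and 0.30 (adjusted p = 0.0966).

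Ednra, the type A receptor, was at 52.4, 52.1 and 48.4 CPM in E13.5 WT and at 50.9, 46.7 and 45.2 in E13.5 KO hearts, and at 53.4, 51.6 and 55.5 in E14.5 WT and at 45.3, 51.4 and 49.7 in E14.5 KO hearts (numbers in the order given above). The E14.5 KO hearts lay just below the WT hearts, and the averaged log2 difference was -0.12 ± 0.05 (SE, edgeR, adjusted p = 0.288). The ratio of Ednra to Ednrb was 0.08 lower in KO hearts at E13.5 and 0.83 lower at E14.5 on the log2 scale. The mean difference of -0.45 had an exact permutation p of 0.03, or 0.06 after adjustment over the 4 ratios, with 0.04 without E13.5 KO heart 5 and 0.05 to 0.14 without each of the other 11 libraries.

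Counting all 9 genes, KO and WT hearts did not overlap for 4 at E13.5 (Nrg1, Edn1 and Ece1 higher, Erbb2 lower) and for 3 at E14.5 (Ednrb higher, Erbb2 and Ednra lower). The shares over all genes were 19.6% and 12.7%. For stage, 3 of 9 in WT (Edn1, Ece1 and Ednrb, all lower at E14.5) and 2 of 9 in KO hearts (Erbb2 and Ece1, both lower) did not overlap, beside 29.5% and 24.9% of all genes. The median log2 difference of the 9 was 0.02 averaged over stages, with 5 above 0 and 4 below, beside 49.3% above 0 for all genes.

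The levels of Ednrb and Ece1 followed each other across the hearts, with Pearson's r of 0.88 over 12 libraries and 0.86 after the group means were subtracted. All 12 points share the same libraries and depths, so r is given as a description only. The summed level of 8 endocardial markers was between 554 and 601 CPM in E13.5 WT, between 612 and 666 in E13.5 KO, between 325 and 471 in E14.5 WT and between 446 and 562 in E14.5 KO hearts. Both genotypes were lower at E14.5 without overlap, and KO hearts lay above WT hearts at E13.5. For Ednrb the stages overlapped in KO hearts, as did the genotypes at E13.5. The mean log2 level of the same markers, in which each counts equally, ran from 5.16 to 5.28 in E13.5 WT, from 4.97 to 5.25 in E13.5 KO, from 4.48 to 4.95 in E14.5 WT and from 4.53 to 5.07 in E14.5 KO hearts, and the genotypes overlapped at both stages. WT heart 7.2 was the lowest heart for Ednrb, for Ece1, for the sum and for the mean log2 level. Of the 8 markers, 3 fell from E13.5 to E14.5 in WT hearts by edgeR (Plvap, Gata5 and Cgnl1), with a median log2 difference of -0.41 over the 8 beside 0.0035 over all genes. In KO hearts 1 fell by stage, Gata5, with a median of -0.20 beside 0.0036. Of all genes, 4.04% passed by stage in WT, 3.74% by stage in KO and 1.42% averaged over the stages, in either direction. Averaged over the stages 1 was lower in KO than in WT hearts, Cytl1, by -1.79 ± 0.27 (SE, edgeR adjusted p = 0.00873), a call that held without each single library, while the other 7 differences were above 0. The WT stage calls were lost without E13.5 WT hearts 1 or 4 or E14.5 WT heart 7.2, that of Plvap also without E13.5 WT heart 2 (Plvap and Gata5, adjusted p = 0.0630 to 0.104), and Cgnl1 held only without E14.5 WT heart 7 or KO heart 4 (otherwise 0.0528 to 0.170). Gata5 in KO was lost without any E13.5 KO heart or E14.5 KO hearts 2 or 1 (0.0692 to 0.106). The litter block ended the calls of Cgnl1 in WT (0.0824) and Gata5 in KO (0.0661). Without litter 3, Cgnl1 (0.125) and Gata5 (0.0812) in WT were lost. Cgnl1 was also lost with RLE scaling (0.0534), Y-linked expression as a covariate (0.0532), only the libraries compared (0.096) and the default fit (0.0549). Without E13.5 KO heart 5 and E14.5 KO heart 2 together, Gata5 in KO (0.176) and Cgnl1 in WT (0.0667) were lost. Whether the number of endocardial cells accounts for the levels of Ednrb and Ece1 was not tested.

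**Figure D4:**
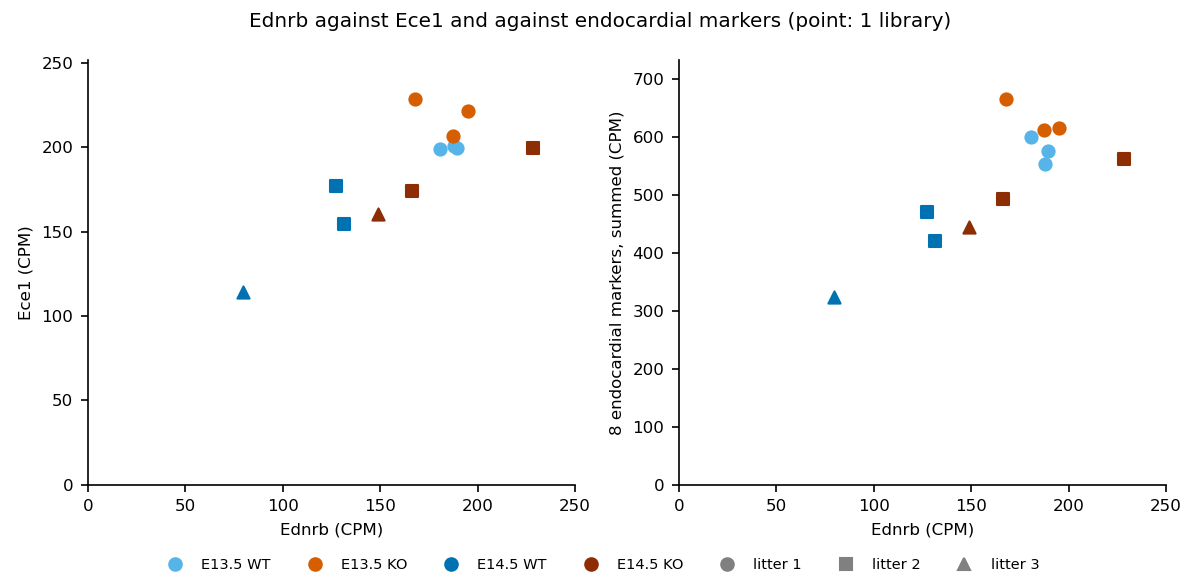
Each point is 1 library, with Ednrb in CPM on the horizontal axis and, on the vertical axis, Ece1 in CPM (left) or the summed CPM of 8 endocardial markers (right). E14.5 WT heart 7.2 lies at the lower left in both panels, at 79.6 CPM of Ednrb.

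For each of the 9 genes, the 2 genes with the highest r among 12703 candidates of at least 1 CPM were listed. Cgnl1, itself one of the endocardial markers, was closest to Ece1 (r = 0.98), followed by Irx6. Sema3a was closest to Ednrb (0.96), followed by Igfbp5. Akt1, a kinase that acts below many growth factor receptors, was closest to Erbb2 (0.97), followed by Mvd. Rasa3 (0.94) and Csgalnact1 (0.91) were closest to Nrg1, Ptprd (0.93) and Ppp1r9a (0.92) to Erbb4, Plekha6 (0.88) and Shc2 (0.85) to Erbb3, Hsp25-ps1 (0.88) and Ccdc51 (0.84) to Hbegf, Ddx1 (0.94) and Lyar (0.90) to Edn1, and Cbx6 (0.93) and Atrx (0.92) to Ednra. These are the highest of many r values over 12 hearts, with no p.

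The other genes of the ErbB pathway were read from lists. Of 9 tested further ErbB ligands and Egfr (10 listed), 0 passed between genotypes by edgeR in any comparison, and 0 by DESeq2. At an unadjusted p under 0.05 by edgeR there was 1 averaged, beside 14.7% of all genes. Tgfa, a ligand of Egfr, had an averaged log2 difference of 0.24 ± 0.10 (SE, adjusted p = 0.271). By stage, edgeR called 1 of these genes in WT and 0 in KO hearts, beside 4.04% and 3.74% of all genes. DESeq2 called 1 in WT and 1 in KO hearts, beside 2140 and 1822 of all 20691 genes. Btc, betacellulin, rose from E13.5 to E14.5 in WT hearts by 1.06 ± 0.24 (adjusted p = 0.0327), a call lost without any 1 of the 3 E13.5 WT hearts or without E14.5 WT heart 7.2 (adjusted p = 0.0698 to 0.167) and with the litter block (0.87, adjusted p = 0.0696). Of 15 sheddases, adaptors and inhibitors found under their symbols (17 listed), 6 had an unadjusted p under 0.05 averaged by edgeR. The share over all genes was 14.7%. At the adjusted threshold 1.42% of all genes passed averaged over the stages, and 1 of the 15 rose in KO hearts. It was Adam9, a membrane protease that can release HB-EGF, at 0.31 ± 0.07 (SE, adjusted p = 0.0395, edgeR). This call held without E13.5 KO heart 7 or E14.5 KO heart 4 and was lost when any other single library was left out (adjusted p = 0.0546 to 0.0994).

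Of 11 feedback inhibitors and ETS factors whose transcription answers ERK signalling, 1 rose in KO hearts averaged over the stages. Of all genes, 1.42% passed there. At an unadjusted p under 0.05 by edgeR there were 2 of 11 at E13.5, 7 at E14.5 and 7 averaged. The shares over all genes were 10.3%, 9.59% and 14.7%. DESeq2 called 0, 3 and 4 of the 11, and 310, 348 and 926 of all 20691 genes. Etv5, an ETS factor, was at 28.0, 25.8 and 22.4 CPM in E13.5 WT hearts and at 31.0, 35.0 and 34.2 in E13.5 KO hearts. At E14.5 it was at 22.4, 22.4 and 18.1 CPM in WT and at 32.3, 32.5 and 25.7 in KO hearts, so the genotypes did not overlap at either stage. Its averaged log2 difference was 0.46 ± 0.08 (SE, adjusted p = 0.0153, edgeR). Without E13.5 WT heart 4 the adjusted p was 0.0507, and without E13.5 KO heart 5 and E14.5 KO heart 2 together the difference was 0.42 with an adjusted p of 0.106. Etv4, a close relative, had 0.50 ± 0.12 (adjusted p = 0.0606). In the list, 8 of 11 differences were above 0 with a median of 0.18, beside 49.3% and -0.0022 for all genes. From E13.5 to E14.5 in WT hearts the log2 level of Etv4 fell by 0.87 ± 0.17 (adjusted p = 0.0244), a call lost without any E13.5 WT heart or without E14.5 WT heart 7 or 7.2 (adjusted p = 0.0508 to 0.126).

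**Figure D5:**
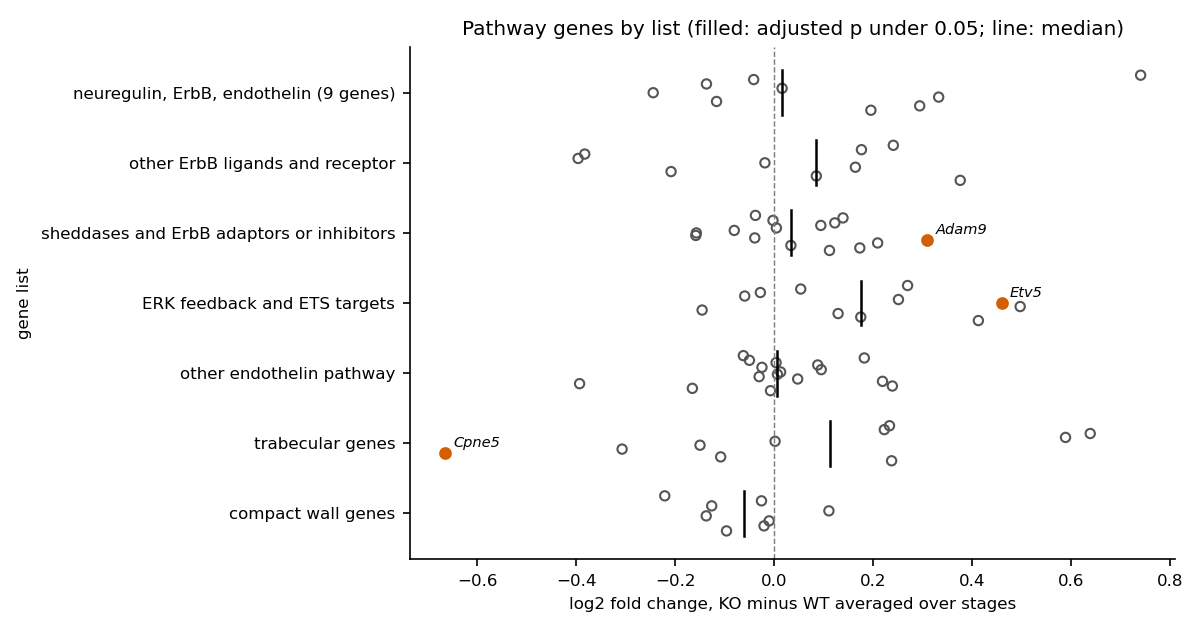
Each point is the log2 fold change of 1 gene, KO minus WT averaged over stages (horizontal axis), in 7 lists (vertical axis), with the list's median as a line and genes with an adjusted p under 0.05 filled. Adam9 (0.31), Etv5 (0.46) and Cpne5 (-0.67) are the 3 filled points, and the 9 neuregulin, ErbB and endothelin genes are all open.

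Of 16 further genes of the endothelin pathway, 0 passed between genotypes by edgeR and 0 by DESeq2. At an unadjusted p under 0.05 by edgeR there were 0, 2 and 1 at E13.5, at E14.5 and averaged. The shares over all genes were 10.3%, 9.59% and 14.7%. Between stages, 3 rose and 1 fell in WT hearts and 2 rose in KO hearts, beside 4.04% and 3.74% of all genes in either direction. Rgs5, a regulator that turns off G protein signalling and marks pericytes, rose by 2.499 ± 0.31 in WT (adjusted p = 0.0150) and by 2.40 ± 0.31 in KO hearts (adjusted p = 0.00917). The WT call was lost without E13.5 WT heart 1 or 4 (adjusted p = 0.0609 to 0.0785) and the KO call without E13.5 KO heart 7 (0.0543). Rgs4 (1.87 ± 0.41, adjusted p = 0.0327) and Rgs2 (0.46 ± 0.10, adjusted p = 0.0326) rose in WT hearts, and Mme, a peptidase that degrades endothelin, fell by 0.93 ± 0.23 (adjusted p = 0.0491). Plcb4, a phospholipase activated by these receptors, rose by 0.41 ± 0.11 in KO hearts (adjusted p = 0.04996). Rgs2 was lost without any E13.5 WT heart or without E14.5 WT heart 8 or 7.2 (adjusted p = 0.0639 to 0.160), and Rgs4 without these or without E13.5 KO heart 5 (0.0502 to 0.145). Mme held without E13.5 KO hearts 3 or 7, E14.5 KO hearts 1 or 4 or E14.5 WT heart 7, and was lost without any other library (0.0617 to 0.214). Plcb4 held without E13.5 WT hearts 1 or 2 or E14.5 WT heart 7.2 only (otherwise 0.0506 to 0.158). All 4 were lost with the litter block (adjusted p = 0.0638 to 0.103).

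Genes of the muscle layers that neuregulin shapes were read in the same way. Of 10 genes of trabeculae, 3, 6 and 6 had log2 differences above 0 at E13.5, at E14.5 and averaged. The shares over all genes were 50.4%, 48.1% and 49.3%, and the medians of the 10 were -0.054, 0.29 and 0.11. At an unadjusted p under 0.05 by edgeR there were 0, 4 and 4, beside 10.3%, 9.59% and 14.7% of all genes. At the adjusted threshold, which 0.222% of all genes passed at E14.5 and 1.42% averaged, only 1 was called, and it fell in KO hearts. This gene, Cpne5, encodes a calcium-dependent membrane-binding protein. It was at 19.8, 16.03 and 24.9 CPM in E13.5 WT and at 14.6, 16.3 and 19.5 in E13.5 KO hearts, and at 19.5, 23.0 and 17.4 in E14.5 WT and at 9.33, 10.7 and 8.54 in E14.5 KO hearts. Its log2 difference was -1.07 ± 0.16 at E14.5 (adjusted p = 0.0241) and -0.67 ± 0.11 averaged (adjusted p = 0.0138, edgeR). The averaged call held without each single library and was lost without E13.5 KO heart 5 and E14.5 KO heart 2 together (-0.65, adjusted p = 0.116), and the E14.5 call was lost without E14.5 KO heart 2, WT heart 7 or WT heart 7.2 (adjusted p = 0.0644 to 0.114). Bmp10, a trabecular growth factor, differed by 0.51 ± 0.15 at E14.5 (adjusted p = 0.230) and the natriuretic peptide gene Nppa by 0.59 ± 0.18 averaged (adjusted p = 0.154). Of 8 genes of the compact wall, 0 passed between genotypes by edgeR (1, 0 and 2 at an unadjusted p under 0.05 at E13.5, at E14.5 and averaged, 0 by DESeq2).

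Between stages, trabecular genes were lower at E14.5 in 10 of 10 cases in WT and 9 of 10 in KO hearts, with medians of -0.59 and -0.37 beside 0.0035 and 0.0036 over all genes. By edgeR, Hand1 (-0.77 ± 0.18, adjusted p = 0.0365) and Bmp10 (-0.59 ± 0.15, adjusted p = 0.0466) fell in WT, and Hand1 (-0.72 ± 0.18, adjusted p = 0.0429) and Cpne5 (-0.82 ± 0.16, adjusted p = 0.0222) in KO hearts. In the compact wall list, the transcription factors Tbx5 (-0.46 ± 0.09, adjusted p = 0.0267) and Mycn (-0.32 ± 0.07, adjusted p = 0.0366) fell in WT, while in KO hearts Tbx5 fell (-0.37 ± 0.09, adjusted p = 0.0454) and Hey2 rose (0.34 ± 0.09, adjusted p = 0.0444). Of all genes, 4.04% passed by stage in WT and 3.74% in KO hearts. The calls in these lists changed when single libraries were left out. Bmp10 held only without E14.5 KO hearts 1 or 4 (otherwise adjusted p = 0.0554 to 0.211), and Hey2 only without E14.5 WT hearts 7 or 7.2 (otherwise 0.0522 to 0.149). Hand1 in WT held only without an E14.5 KO heart or E14.5 WT heart 7 (otherwise 0.0509 to 0.178), and in KO only without an E14.5 WT heart or E14.5 KO heart 4 (otherwise 0.0600 to 0.151). Cpne5 in KO was lost without E13.5 KO hearts 5 or 7 or E14.5 KO hearts 2 or 1 (0.0558 to 0.0990). Mycn held only without E13.5 KO hearts 3 or 7 or an E14.5 KO heart (otherwise 0.0554 to 0.142). Tbx5 in WT was lost without E13.5 WT hearts 1 or 4 or E14.5 WT hearts 8 or 7.2 (0.0527 to 0.129), and in KO it held only without E13.5 WT heart 2, E14.5 KO heart 4 or E14.5 WT hearts 7 or 7.2 (otherwise 0.0542 to 0.153). With the litter block the calls for Hand1, Bmp10, Tbx5 and Hey2 were lost (adjusted p = 0.0512 to 0.101).

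Ednrb is also carried by neural crest derived cells. Of 10 markers of neural crest, nerve and glia, 7 were tested and 0 passed in any comparison by edgeR. The 7 summed to between 5.16 and 8.56 CPM over the 12 hearts, and among them Th was at 0 in 1 library. The other 3 were too low to be tested, among them Foxd3, at 0 in 2 libraries, and Chrna3, at 0 in 5. The 4 ranges by group overlapped. At an unadjusted p under 0.05 by edgeR there were at most 2 of the 7 in a comparison, and DESeq2 called 0. The 2 were for stage in KO hearts, where 20.1% of all genes had such a p. Whether such cells take part in the level of Ednrb was not tested.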

How the data were processed

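Whole-heart RNA was measured in 12 libraries, 3 in each of 4 groups taken from the labels, and the 9 genes were found by symbol. Per the labels' protocols, mRNA was extracted and prepared with the NEBNext Ultra kit. The authors deposited 1 table of raw gene counts. The submitters' processing notes name STAR 2.5.3a, featureCounts, DESeq2, DESeq and GRCm38, and counting settings and annotation release are not given in the sources used here. From these counts, edgeR 4.0.16 (R 4.3.3; TMM scaling, its expression filter, 20691 genes) fitted quasi-likelihood models over all 12 libraries (8 residual degrees of freedom) with 6 comparisons, with Benjamini-Hochberg adjustment across the whole table. The robust option of the fit was not part of the planned design. The default fit was run first and seen, and robust estimation was then adopted because it gave the same all-gene counts as an earlier analysis of these data. The default called 1 of the 9 genes (Ednrb, by stage in WT) and the robust fit 0. CPM use TMM library sizes. Log2 levels have a prior count of 2. The 4 ratios were tested by exact permutation of genotype within stage, which took no account of litter.

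The members, gene lists and tests were chosen with earlier results of these data known. The genes named are the 9 in every comparison, up to 3 called genes per list, comparison and direction, the 2 genes most like each of the 9, and Ino80. Other genes named with values that missed the threshold (Tgfa, Etv4 by genotype, Bmp10 by genotype, Nppa) were chosen after their values were seen. The litter, given in the labels, pairs hearts of both genotypes at E14.5. Over 20691 genes the deviations of same-litter hearts from their group means had a mean r of 0.0040, against -0.0050 for hearts of different litters. Such deviations cancel within each group, so either mean nearly fixes the other. The pair of values therefore does not show whether litter matters. DESeq2 1.42.0, other scaling, no filter, only the libraries compared, litter, Y-linked expression, leaving out each library, litter 3 or the 2 KO libraries that stood apart in earlier results, and the default fit were tried as alternatives. The edgeR fit was also run on counts simulated from each gene's mean and spread in these data, without stage or litter effects. Its outcome is not given here, and it does not check the stage or litter fits. The values of some markers of neural crest, nerve and glia are not reported here on their own.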

Additional observations from a re-analysis of the deposited data

How the results depend on the processing

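Over 54 member values (9 genes in 6 comparisons) and 21 alternatives, 1116 refits gave 1040 with the same sign and side of the threshold, 19 newly past it and 57 of opposite sign, the last in 18 values near 0, none past the threshold. RLE scaling changed no member's sign or call. The number of the 9 genes called was 1 at E14.5, 2 averaged, 2 for stage in WT and 1 for stage in KO by DESeq2, 1 for stage in KO with no low-count filter, 1 averaged and 1 for stage in KO without litter 3, and 1 for stage in WT in the default fit. With litter as a replicate block it was 1 at E14.5, 1 averaged and 1 for stage in WT, all Ednrb, and the block changed no other call among the 9. Leaving out single libraries gave 0 to 1 averaged, for stage in WT and for stage in KO.

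All-gene counts of calls, with 22 at E13.5, 46 at E14.5, 293 averaged, 0 for the change between stages, 836 for stage in WT and 774 for stage in KO, were 310, 348, 926, 2, 2140 and 1822 by DESeq2. They were 40 at E13.5 and 77 at E14.5 with no filter, 95 at E13.5, 2 at E14.5 and 289 for stage in KO in fits of only the libraries compared, and 60 at E13.5, 92 at E14.5, 299 for stage in WT and 332 for stage in KO with the replicate block. A Y-linked covariate gave 9 at E13.5 and 394 for stage in KO, leaving out litter 3 gave 71 at E13.5 and 95 for stage in WT, and leaving out E13.5 KO heart 5 with E14.5 KO heart 2 gave 10 at E14.5, 63 averaged, 474 for stage in WT and 130 for stage in KO. Leave-one-out ranges were 2 to 69, 10 to 107, 125 to 483, 8 to 1081 and 66 to 1076 for E13.5, E14.5, averaged, stage in WT and stage in KO, and -0.53 to -0.32 for the Ednra to Ednrb ratio and 0.62 to 0.87 for Nrg1 over endothelial markers.

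Log2 values of opposite sign were as follows. Without the 2 KO libraries, Ednrb was 0.041 at E13.5, Erbb4 0.021 at E14.5 and Erbb3 -0.019 averaged, and for the change between stages Nrg1 was -0.073, Edn1 -0.21 and Ednra 0.0041. With the Y-linked covariate, Erbb3 was 0.062 at E13.5, Nrg1 -0.018 and Erbb3 -0.038 for the change between stages, and Erbb4 -0.031 for stage in KO. Without litter 3, Erbb3 was -0.10 at E14.5, -0.056 averaged, -0.096 for the change and -0.024 for stage in KO, Erbb4 was -0.039 for the change and -0.048 for stage in KO, and Ednrb was 0.099 for stage in KO, which was 0.16 with the replicate block. Leave-one-out ranges that crossed 0 were, for Erbb3, -0.088 to 0.050 at E13.5, -0.076 to 0.15 at E14.5, -0.045 to 0.067 averaged, -0.063 to 0.17 for the change, -0.033 to 0.10 for stage in WT and -0.016 to 0.21 in KO. For Erbb4 they were -0.17 to 0.022 at E14.5, -0.030 to 0.22 for the change, -0.21 to 0.045 for stage in WT and -0.10 to 0.12 in KO. For Ednrb they were -0.066 to 0.040 at E13.5 and -0.22 to 0.11 for stage in KO, for Edn1 -0.20 to 0.21 for the change and -0.36 to 0.042 for stage in KO, for Ednra -0.066 to 0.030 for the change and -0.0043 to 0.092 for stage in KO, and for the change also -0.021 to 0.29 for Ece1 and -0.087 to 0.56 for Nrg1. The cause of these changes was not tested. With 3 hearts per group, 1 litter at E13.5 and counts as low as 43 for Nrg1, a difference that missed the threshold is not shown to be absent.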
